A study of Mus musculus with 6 samples.

Results

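Cassette exons whose length is a multiple of 3 were examined in mouse small intestinal crypt cells, among exons that some transcripts included and others skipped. Members were rows of the authors' skipped-exon table with an exon of 31 to 299 nt, 20 or more reads per library on average, and a pooled inclusion from 0.1 to below 0.9. Pooled inclusion is the share of transcripts that carry the exon, taken from the length-scaled inclusion and skipping reads summed over all 6 libraries. The rule gave 1652 of 43465 rows, which were 1446 different exons in 1141 genes. Inclusion chose these exons, so their inclusion levels are given as a description. At the lower limit a 120 nt exon of Ppp4r1 lay just outside, at 0.09878. At the upper limit a 93 nt exon of Exoc3l4 lay just below 0.9 and a 108 nt exon of Kif21a just above, at 0.9003, and a second row of the Kif21a exon, with fewer reads, was inside.

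The 6 mRNA libraries came from C57BL/6 mice aged 60 days, 3 labelled WT and 3 labelled PTBP1_KO. Mice of both groups carried floxed Ptbp1 alleles (Ptbp1f/f). The PTBP1_KO mice also carried Vil-creER, a tamoxifen-activated Cre recombinase under villin regulatory sequence that acts in intestinal epithelium, whereas WT mice had no Cre. Both groups received tamoxifen at 100 mg/kg in 2 daily injections, and cells were taken 20 h after the last one, so the comparison is of an early time after recombination. The labels do not say that animals were pooled. The series asks what PTBP1 does in regeneration of the intestinal epithelium.

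The header of the splicing table names a first and a second set of 3 libraries but not which set is WT. Groups were never assigned from read values, so every difference below is the first set minus the second set, and no direction is given by genotype. The 6 libraries held 32226951 to 39774266 reads over all skipped-exon rows and 386369 to 498620 over the frame-keeping exons studied. Among exons that did not change, each library deviated from its set's median inclusion by 0.0273 to 0.0409 on average, and none stood apart in these exons. Exons that did not change cannot show whether a library differed from its set in the changed ones. The authors' deposited gene table gave 230 FPKM (fragments scaled by transcript length and library depth) of Ptbp1 in WT and 123 in PTBP1_KO, with a q-value of 0.0125. All 4 epithelial markers were high, at 227 to 1220 FPKM in WT and 253 to 1340 in PTBP1_KO. The 4 immune markers lay at 2.38 to 5.96 FPKM in WT and 2.33 to 9.26 in PTBP1_KO, with sums of 16.4 and 23.0, and the 5 stromal markers summed to 6.60 and 7.55. The 5 crypt markers, which include stem and Paneth cell genes, were at 6.78 to 1471 FPKM in WT and 6.78 to 2470 in PTBP1_KO, the upper values being of Lyz1, a Paneth cell lysozyme. None of these markers passed the authors' q of 0.05, none was at 0, and their part in the exon differences was not tested. In bulk RNA, fewer cells of a type and less RNA per cell cannot be told apart.

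PTBP1, the polypyrimidine tract binding protein, binds stretches rich in C and U in pre-mRNA and is known mainly for repressing exons near such stretches, although it can also promote inclusion. An exon whose length is a multiple of 3 can be inserted or left out without moving the reading frame of the codons that follow. Inside coding sequence, such an exon adds or removes a stretch of amino acids, whereas an exon of another length shifts the frame and often exposes the transcript to nonsense-mediated decay. Cells use frame-keeping exons of intermediate inclusion to make protein variants that differ in a binding surface, a phosphorylation site or a localisation signal.

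The exon sequences below are the coding exons with the largest differences in either direction among changed exons with at least 20 reads in every library, each gene being represented by its exon of largest absolute difference, shown so that their pyrimidine content can be read beside their inclusion. They were read 5′ to 3′ on the transcript strand from GENCODE M21 transcripts (GRCm38, the build called mm10 in the submitters' processing notes). Capitals mark every match to the word TTCT, the word TCTT, the word CTCT or the word CTTT, the 4-letter pyrimidine words searched, which overlap one another; each was also searched on the opposite strand.
Sbf2, higher in the first set: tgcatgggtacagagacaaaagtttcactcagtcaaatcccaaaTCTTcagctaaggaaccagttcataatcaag
Plekha6, higher in the first set: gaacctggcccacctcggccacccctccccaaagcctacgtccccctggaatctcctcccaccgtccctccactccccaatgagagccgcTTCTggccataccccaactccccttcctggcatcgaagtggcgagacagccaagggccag
Kansl3, higher in the first set: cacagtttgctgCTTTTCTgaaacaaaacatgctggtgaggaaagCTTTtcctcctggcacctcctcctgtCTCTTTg
Atp8a1, higher in the first set: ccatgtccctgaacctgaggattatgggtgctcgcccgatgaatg
Reep6, higher in the first set: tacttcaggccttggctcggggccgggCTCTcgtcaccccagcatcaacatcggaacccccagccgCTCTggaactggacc
Etl4, lower in the first set: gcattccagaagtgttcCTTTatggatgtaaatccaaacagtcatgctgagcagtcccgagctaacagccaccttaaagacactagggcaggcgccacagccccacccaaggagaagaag
App, lower in the first set: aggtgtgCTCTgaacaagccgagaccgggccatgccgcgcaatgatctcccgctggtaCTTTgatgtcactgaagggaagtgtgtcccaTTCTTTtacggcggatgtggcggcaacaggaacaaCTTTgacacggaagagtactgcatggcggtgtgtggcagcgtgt
Ktn1, lower in the first set: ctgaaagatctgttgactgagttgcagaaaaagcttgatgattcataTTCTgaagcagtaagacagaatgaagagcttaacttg
Lmo7, lower in the first set: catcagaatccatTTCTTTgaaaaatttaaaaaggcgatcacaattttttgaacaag
The Atp8a1 exon held none of the 4 words, and 46.8% of tested exons of its length held at least 1. For the Sbf2 exon that share was 62.2%, for Kansl3 64.6%, for Plekha6 86.1% and for App 85.4%, so a match in an exon of this size is common. A match is a string of letters and not a shown binding site.

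Of the 1446 frame-keeping exons, 217 (15%) changed, meaning an FDR below 0.05 and an inclusion difference of at least 0.1 in the authors' deposited table. Over all 31346 tested exons of any length and inclusion the share called was 1.52%, or 476 exons, with 1.06% higher and 0.463% lower in the first set. Inclusion was higher in the first set for 144 of the 217 exons (9.96% of the frame-keeping exons) and lower for 73 (5.05%), so 66.4% of changes were in the positive direction. The median difference was 0.212 among the higher exons and -0.18 among the lower ones, against -0.002 over all 1446. Differences of at least 0.2 were seen for 101 exons, 75 higher and 26 lower, and differences of at least 0.3 for 36, 31 higher and 5 lower. For 196 of the 217 changed exons (90.3%) the inclusion levels of the 3 first-set libraries did not overlap those of the second set. Non-overlap was seen for 28.1% of all frame-keeping exons and 8.13% of all tested exons. The changed exons were called from these same libraries, so their 90.3% is a description and no separate support. The changed exons lay in 194 genes, and merging exons that overlap one another left 211.

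Among exons with at least 20 reads in every library, those with the greatest rise in the first set encode parts of proteins with varied roles, and several were nearly absent in the second set and at about equal use in the first. Here and below, an exon that rose or fell is one that changed and was higher or lower in the first set. Sbf2, a myotubularin-related pseudophosphatase that activates a Rab GTPase, carried the 75 nt exon at chr7:110341290-110341364 on the minus strand. Its inclusion was 0.837, 0.647 and 0.801 in the first-set libraries and 0.189, 0.0910 and 0.230 in the second set, and the difference in the authors' deposited table was 0.592. The sets lie far apart, with a gap wider than the spread within either. Plekha6, a PH-domain protein of a family found at cell junctions, carried a 150 nt exon at chr1:133286247-133286396 on the plus strand. Inclusion there was 0.698, 0.622 and 0.745 in the first set and 0.135, 0.0960 and 0.113 in the second, a difference of 0.574 in the authors' deposited table. It had 737 reads per library on average. Kansl3 is a subunit of the NSL histone acetyltransferase complex, and its 78 nt exon lies at chr1:36347217-36347294 on the minus strand. This exon was at 0.610, 0.480 and 0.635 in the first set and at 0.0591, 0.0543 and 0.00700 in the second. All 3 second-set libraries all but lacked it, and the difference in the authors' deposited table was 0.535.

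Atp8a1 and Reep6 showed the same near absence in the second set. Atp8a1 is a flippase that moves phospholipids across membranes, and its 45 nt exon (chr5:67756650-67756694, minus strand) adds 15 codons. Inclusion was 0.622, 0.348 and 0.571 in the first set and 0.0165, 0 and 0.0120 in the second. A count of 0 inclusion reads in that library allows an inclusion of up to 0.0455, taking 3 reads as the limit, and this limit covers counting error only. Reep6, a shaper of the endoplasmic reticulum membrane, had an 81 nt exon (chr10:80334713-80334793, plus strand) with 1634 reads per library. Its inclusion was 0.540, 0.454 and 0.556 in the first set and 0.0285, 0.0305 and 0.0246 in the second. The second-set libraries lay close together at this depth. The differences were 0.504 for Atp8a1 and 0.488 for Reep6 in the authors' deposited table, which lists the FDR of all 5 exons described so far as 0.

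A further 7 genes complete the 12 with the greatest positive differences at 20 or more reads in every library, each gene again by its exon of largest absolute difference, which range from 0.401 to 0.592 in the authors' deposited table. Myrf, a membrane-anchored transcription factor of myelinating cells, had an 81 nt exon at 0.543, 0.321 and 0.542 against 0, 0.0104 and 0.0437, the 0 allowing up to 0.0263. Tmem179b, a transmembrane protein, had a 135 nt exon at 0.908, 0.901 and 0.961 against 0.495, 0.495 and 0.443, so here the second set was at about equal use and the first set near full inclusion. R3hdm1 had a 102 nt exon at 0.600, 0.610 and 0.622 against 0.187, 0.120 and 0.194. The sets did not overlap in any of these exons, which were chosen for large differences in these same libraries. The other 4 were a 285 nt exon of Baz2b (bromodomain chromatin protein; 0.424), a 168 nt exon of Arhgef1 (activator of RhoA; 0.42), a 294 nt exon of Wnk2 (kinase of ion transport; 0.413) and a 45 nt exon of Tnk2 (Cdc42-associated tyrosine kinase; 0.401), given as differences in the authors' deposited table. Among these 12 exons, library 2 of the first set lay nearest the second set in all but R3hdm1 and Baz2b, where library 1 did. The reason was not tested. Across all 144 higher exons, 20 were below 0.05 in every second-set library. Given the rule's lower limit of 0.1, an exon this low in the second set was a member only through its first-set inclusion. Their count therefore partly restates the rule, as does the near absence of such exons here and in the other paragraphs. A further count, which may include some of the same exons, is of those above 0.5 in every first-set library and below 0.5 in every second-set library, and it was 19.

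**Figure D1:**
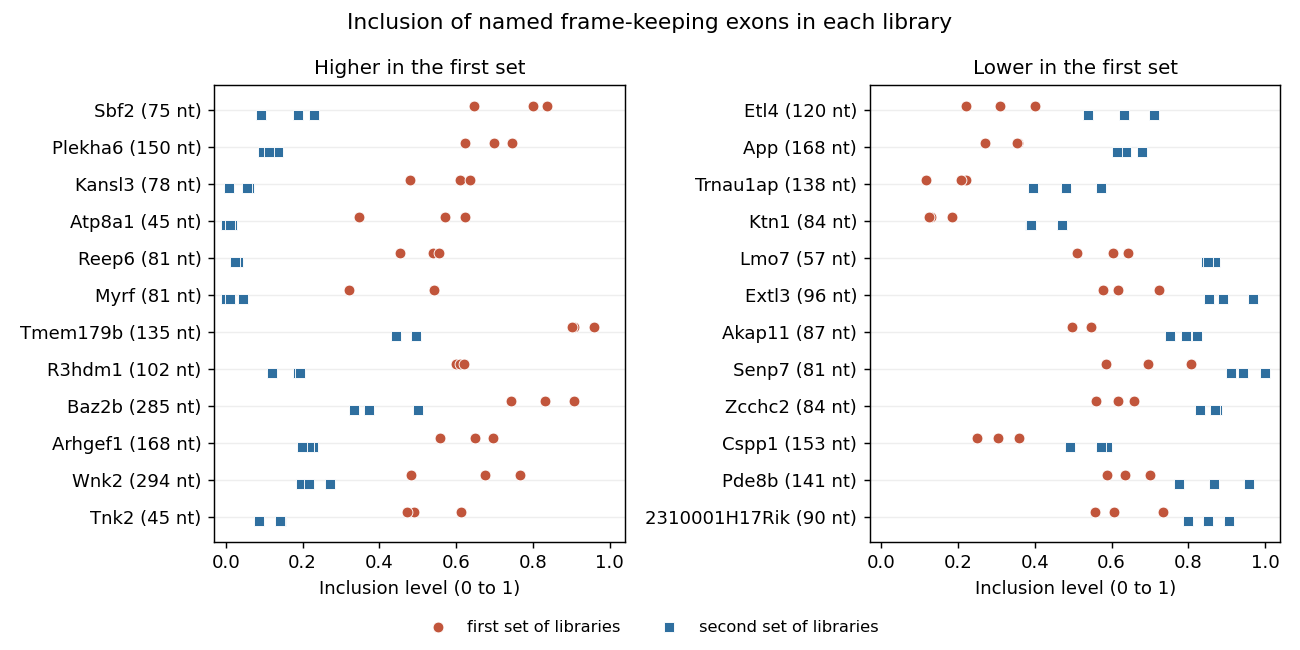
Inclusion level (0 to 1, horizontal axis) of 24 changed frame-keeping exons, the 12 highest and 12 lowest differences when each gene is represented by its exon of largest absolute difference and every library has at least 20 reads. Each circle is a first-set library and each square a second-set library. The sets do not overlap in any of the 24 exons, which were chosen for large differences in these same libraries. Kansl3, Atp8a1, Reep6 and Myrf lie below 0.06 in every second-set library.

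Exons lower in the first set moved less far. With each gene represented by its exon of largest absolute difference and 20 reads in every library, even the greatest decrease was smaller than the 12th rise. App, the amyloid precursor protein, had a 168 nt exon at chr16:85043576-85043743 on the minus strand, the exon known to encode the Kunitz-type protease inhibitor domain. Its inclusion was 0.356, 0.354 and 0.269 in the first set and 0.637, 0.614 and 0.680 in the second, with 2614 reads per library, more than for any other exon that fell. The preferred form thus differed between the sets, with skipping more common in every first-set library and inclusion in every second-set library. The authors' deposited table gave a difference of -0.317 with an FDR listed as 0. Etl4 had a 120 nt exon at chr2:20801542-20801661 on the plus strand with the same difference of -0.317 and an FDR of 4.81e-07 in the authors' deposited table. It was at 0.309, 0.401 and 0.220 in the first set and at 0.632, 0.538 and 0.711 in the second.

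Ktn1 and Lmo7 link membranes or junctions to the cytoskeleton. Ktn1, or kinectin, is a kinesin-binding protein of the endoplasmic reticulum, and its 84 nt exon (chr14:47726471-47726554, plus strand) was at 0.130, 0.183 and 0.125 in the first set and 0.471, 0.386 and 0.389 in the second. Lmo7, an actin-associated protein of adherens junctions, had a 57 nt exon (chr14:101915688-101915744, plus strand) at 0.509, 0.644 and 0.604 against 0.845, 0.868 and 0.852. Both differences were -0.269 in the authors' deposited table, though the Ktn1 exon was mostly skipped and the Lmo7 exon mostly included. The other 8 of the 12 greatest decreases chosen in this way ran from -0.302 to -0.22 in the authors' deposited table. A 39 nt exon of Osbpl9, at -0.223 in the authors' deposited table, is not among the 12 because another exon of that gene rose by more, and it is described below. They were in Trnau1ap, a selenocysteine tRNA-associated protein, Extl3, a heparan sulfate glycosyltransferase, Akap11, an anchor of protein kinase A, Senp7, a SUMO protease, Zcchc2, Cspp1, a centrosome and spindle protein, Pde8b, a cAMP phosphodiesterase, and 2310001H17Rik. Not all of these alter a protein: the Trnau1ap exon is annotated in decay transcripts only, the Extl3 exon is untranslated and that of 2310001H17Rik is in a non-coding transcript. Of the 73 lower exons, 7 were below 0.5 in every first-set library and above 0.5 in every second-set library.

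The deepest changed exon was in Cd74, the invariant chain of MHC class II, which immune cells and intestinal epithelial cells can both make. This 192 nt exon at chr18:60811294-60811485 on the plus strand is the one that distinguishes the longer form of the protein, and it had 14323 reads per library. Inclusion was 0.232, 0.192 and 0.220 in the first set and 0.1002, 0.113 and 0.105 in the second, with a difference of 0.109 in the authors' deposited table. Here a small difference stood clear of the spread between libraries. Cd74 was at 790 FPKM in WT and 898 in PTBP1_KO in the authors' deposited gene table, beside the immune marker sums given above, and whether immune cells took part in this difference was not tested.

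Frame-shifting exons in the same length, read and inclusion range were counted for comparison. Of 1612 such exons 161 changed, or 9.99%, beside 15% of the frame-keeping exons, and no test of this difference was run. Their direction was divided alike, with 108 higher and 53 lower, or 67.1% higher. Frame-keeping exons outside the window changed in 1.59% of cases below an inclusion of 0.1 (17 of 1070) and in 0.287% at 0.9 or more (27 of 9399). An exon near either end of the scale has little room to differ by 0.1, so the window itself bears on these shares. Within the window the frame-keeping share was 18.8% at an inclusion of 0.1 to 0.3 (76 of 404), 13.97% at 0.3 to 0.7 (64 of 458) and 13.2% at 0.7 to 0.9 (77 of 584). The frame-shifting shares in these ranges were 9.07%, 12.1% and 9.28%, lower than the frame-keeping share in each. The frame-shifting exons had fewer reads, with a median of 84.3 per library against 105.8. By annotation, the frame-keeping and frame-shifting shares were 17.8% and 10.6% in coding exons and 15.2% and 13.9% in partly coding ones. They were 9.47% and 7.53% in non-coding transcripts, 5.66% and 5.64% in decay transcripts, and 7.19% and 10.4% in untranslated exons. The part of depth and annotation was not tested.

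**Figure D2:**
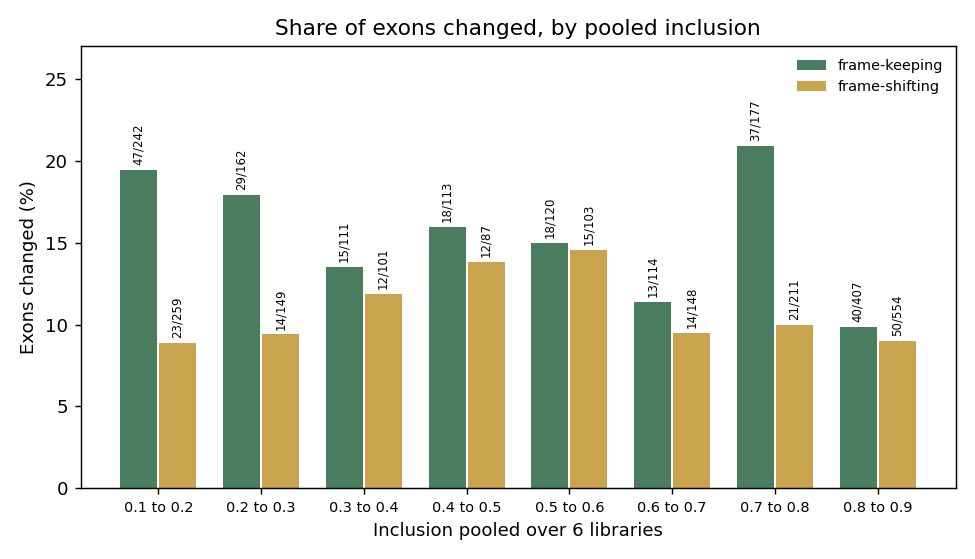
Percent of exons changed (vertical axis) by pooled inclusion in steps of 0.1 (horizontal axis), for frame-keeping and frame-shifting exons. The frame-keeping share runs from 9.83% at 0.8 to 0.9 up to 20.9% at 0.7 to 0.8, and the frame-shifting share from 8.88% to 14.6%; no error is drawn because these are counts over exons and not over libraries.

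The balance of directions varied over the range of inclusion. Of the 76 changed exons with pooled inclusion from 0.1 to 0.3, 65 were higher and 11 lower in the first set. Between 0.3 and 0.7 the split was 41 and 23, and between 0.7 and 0.9 it was 38 and 39. No test of these splits was run.

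**Figure D3:**
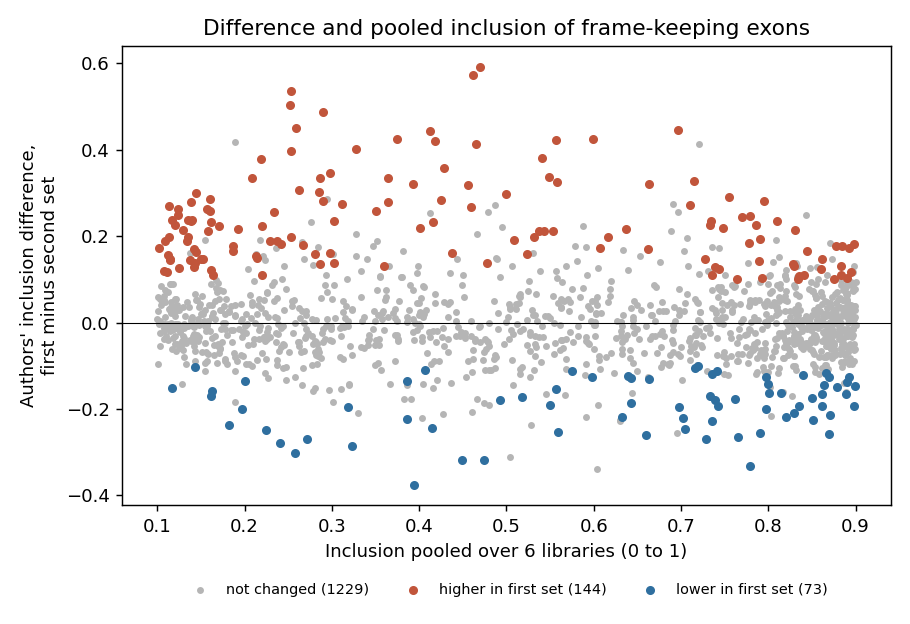
Inclusion difference, first minus second set, as deposited by the authors (vertical axis), against inclusion pooled over the 6 libraries (horizontal axis) for the 1446 frame-keeping exons. Grey points are exons that did not change and coloured points the 144 higher and 73 lower ones; the coloured points above 0.4 lie between 0.253 and 0.696 of pooled inclusion, while no changed exon lies below -0.4.

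The exons are short, with a median length of 102 nt, or 34 codons. Those that rose had a median of 31 codons and those that fell one of 33. By length, the changed share was 16.3% at 31 to 60 nt, 17.6% at 61 to 90, 13.1% at 91 to 120, 15.4% at 121 to 180 and 10.5% at 181 to 299 nt. In the shortest class 34 exons were higher and 7 lower, and in the class of 61 to 90 nt the counts were 37 and 24. The median intron before the exon was 2095 nt for higher exons, 2694 nt for lower exons and 1946 nt for 286 unchanged ones, defined by an FDR above 0.5 and a difference under 0.02 in the authors' deposited table. After the exon the medians were 1999, 2847 and 2291 nt, so introns around the lower exons were the longest on both sides. These are medians over exons, described without a test.

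In GENCODE M21, 997 of the 1446 exons (68.9%) are wholly coding, 92 are partly coding, 153 untranslated, 106 in decay transcripts only and 95 in non-coding transcripts only, and 3 matched no annotated exon. The coding share of the frame-shifting exons was 45.5%. Among coding frame-keeping exons 177 (17.8%) changed, 123 higher and 54 lower. The share was 15.2% for partly coding exons, 7.19% for untranslated ones, 9.47% for non-coding ones and 5.66% for those in decay transcripts only, below that of coding exons in each class. In the last class 1 exon was higher and 5 were lower. Coding exons made up 85.4% of the higher, 74.0% of the lower and 69.2% of the unchanged exons. Of the coding exons, 425 begin at a codon boundary, and 74 of these (17.4%) changed. Exons that begin inside a codon changed in 14.1% (1 base before the next full codon, 163 exons) and 19.6% (2 bases, 409 exons) of cases. No test by phase was run.

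Pyrimidine words within the exons were counted in each class, as a description without a test. CTCT occurred 1.03 times per 100 nt in exons higher in the first set, 0.394 in lower exons, 0.564 in unchanged exons and 0.533 in all tested exons of 31 to 299 nt. At least 1 CTCT was present in 52.8% of higher exons (76 of 144), 27.4% of lower exons (20 of 73), 45.1% of unchanged exons and 41.9% of all tested exons. TTCT and TCTT followed the same order of higher against lower exons, at 0.751 and 0.690 per 100 nt in higher exons and 0.323 and 0.335 in lower ones. CTTT differed less, at 0.541 and 0.478. In unchanged exons TTCT, TCTT and CTTT were at 0.483, 0.395 and 0.392 per 100 nt. By presence, TTCT was in 42.4% of higher, 31.5% of lower, 43.0% of unchanged and 41.9% of all tested exons. Higher exons thus held TTCT about as often as unchanged ones. TCTT was present in 41.7%, 27.4%, 36.4% and 37.6% of these classes, and CTTT in 41.7%, 37.0%, 38.1% and 39.1%. The 6-letter word CTCTCT was in 12 of 144 higher exons (8.33%), 3 of 73 lower exons (4.11%), 4.55% of unchanged and 4.02% of all tested exons. The median pyrimidine content was 52.1% in higher, 45.8% in lower and 47.1% in unchanged exons, beside a GC content of 52.1%, 50% and 50%. These classes also differed in median pooled inclusion, at 0.364 in higher, 0.716 in lower and 0.615 in unchanged exons. The part of inclusion in the word counts was not tested.

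The same words on the opposite strand, read as the purine words AGAA for TTCT, AAGA for TCTT, AGAG for CTCT and AAAG for CTTT in the transcript, ran the other way. AGAA occurred 0.514 times per 100 nt in higher exons, 0.861 in lower, 0.948 in unchanged and 0.892 in all tested exons. AAAG was at 0.392, 0.741, 0.724 and 0.663, while AGAG differed least, at 0.738, 0.872, 0.817 and 0.731. Lower exons were thus close to unchanged exons in these purine words and under them in 3 of the 4 pyrimidine words, all but CTTT. The introns beside the exons were not analysed here, and a word count in exons is not a measure of binding.

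**Figure D4:**
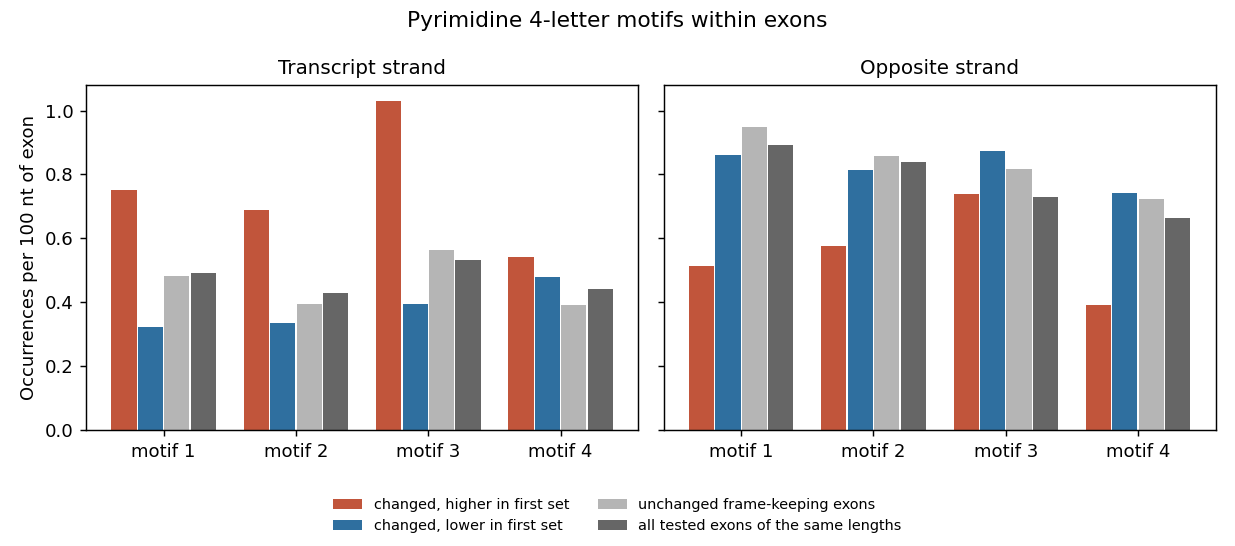
Occurrences per 100 nt of exon (vertical axis) of the word TTCT (motif 1), the word TCTT (motif 2), the word CTCT (motif 3) and the word CTTT (motif 4), on the transcript strand (left) and the opposite strand (right), in changed exons higher or lower in the first set, unchanged exons and all tested exons. On the left, higher exons have the tallest bar for each motif, with CTCT at 1.03; on the right they have the lowest bar for motifs 1, 2 and 4, and lie beside all tested exons for motif 3.

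Genes known as targets of PTBP1 or its paralogs were listed, and the list holds genes named in earlier results of these data, so its count supports nothing about direction. Of its 36 genes 18 had a frame-keeping exon in the window, and 11 of their 27 exons (40.7%) changed, 10 higher and 1 lower, beside 15% of all frame-keeping exons. The median difference over the 27 was 0.088. Tpd52, a vesicle traffic protein, had a 42 nt exon with 2742 reads per library at 0.239, 0.222 and 0.296 in the first set and 0.0196, 0.0153 and 0.0189 in the second. Anxa7, a calcium-dependent membrane-binding annexin, had a 66 nt exon at 0.272, 0.181 and 0.299 against 0, 0.00598 and 0, where the counts of 0 allow up to 0.00661 and 0.00567. Both exons were all but skipped in the second set. Exoc7, a subunit of the exocyst, had a 93 nt exon at 0.3002, 0.242 and 0.350 against 0.00508, 0.0271 and 0.0271. Mark3, a kinase of cell polarity, had a 45 nt exon at 0.493, 0.422 and 0.547 against 0.254, 0.216 and 0.217. In both the sets stood apart. Other changed genes were Sbf2 and Ktn1, described above, Ganab (glucosidase II alpha; 0.181), Ppp1r12a (myosin phosphatase targeting subunit; 0.146) and Tpm1 (tropomyosin; 0.131), by difference in the authors' deposited table. The Tpm1 exon had 20.2 reads per library and 10 in the shallowest, and its sets overlapped, at 0.914, 1 and 1 against 1, 0.803 and 0.717.

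In 8 genes of this list no frame-keeping exon changed, among them those that follow. Bin1, a membrane-curvature protein, had a 93 nt exon with a difference of 0.085 and an FDR of 0.0537 in the authors' deposited table, and Rtn4, a reticulon, a 57 nt exon with 0.089 and 0.00263, just under the required difference. Cd44, an adhesion receptor, had a 120 nt exon with -0.204 and an FDR of 0.112, and Cttn, the actin regulator cortactin, a 111 nt exon with 0.184 and 0.172 in the authors' deposited table. Those 2 exons had 35.2 and 32.2 reads per library, and their sets did not overlap even so. Kif21a (a kinesin; -0.102) and Macf1 (a spectraplakin; 0.066) had overlapping sets, with differences from the authors' deposited table. Ptbp1 itself had a 78 nt exon at 0.325, 0.264 and 0.272 against 0.335, 0.315 and 0.29995, a difference of -0.03 with an FDR of 1 in the authors' deposited table. The reads behind that exon were 68, 233 and 126 in the first-set libraries and 944, 1005 and 1179 in the second set. No set was assigned a genotype from these reads.

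Lists by protein role share genes with one another and are described by count, to be read beside the 15% of all frame-keeping exons that changed, 144 higher and 73 lower. In the list of kinases and GTPase regulators 13 of 37 exons (35.1%) changed, 11 higher and 2 lower, with a median difference of 0.042. Wnk1, a kinase that controls ion transport, had a 132 nt exon at 0.387, 0.405 and 0.581 against 0.0514, 0.0874 and 0.0480. Map4k4, a kinase upstream of JNK, had 2 overlapping exons of 225 and 231 nt with differences of 0.318 and 0.298 in the authors' deposited table. They share nearly all of their sequence and reads, so they are not separate events. In the list of actin, spectrin, myosin and microtubule genes 12 of 39 exons (30.8%) changed, 7 higher and 5 lower, among them Clip1 (microtubule plus-end protein; 0.32) and Epb41l3 (membrane skeleton protein; -0.278), by difference in the authors' deposited table. The membrane traffic list had 9 of 33 exons changed (27.3%), 8 higher and 1 lower, including a 42 nt exon of Ap2b1, a subunit of the clathrin adaptor AP-2, at 0.580, 0.417 and 0.534 against 0.318, 0.288 and 0.265.

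All 7 changed exons of the junction, adhesion and polarity list were higher in the first set, out of 24 exons (29.2%) with a median difference of 0.038. Over all frame-keeping exons 15% changed, 66.4% of them higher, and no test set this list apart. Afdn, the adherens junction scaffold afadin, had a 45 nt exon at 0.274, 0.205 and 0.324 against 0, 0 and 0.0107, where the counts of 0 allow up to 0.0116 and 0.0184. Magi1, a tight junction scaffold, had a 36 nt exon at 0.495, 0.479 and 0.346 against 0.278, 0.0486 and 0.0884, with library 1 of the second set nearest the other set. Pkp4, a catenin-family junction protein, had a 129 nt exon at 0.449, 0.468 and 0.579 against 0.206, 0.221 and 0.230. Arhgef11, a RhoA activator at junctions, had a changed pair: a 33 nt exon that rose by 0.285 and a 120 nt exon that rose by 0.235 in the authors' deposited table. The list of genes with epithelial splicing programmes had 10 of 35 exons changed (28.6%), 7 higher and 3 lower, with a median of -0.005.

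RNA processing and chromatin genes changed at shares nearer that of all frame-keeping exons. In RNA processing genes 4 of 39 exons (10.3%) changed, with a median difference of -0.003. Mbnl2, a splicing regulator, had a 36 nt exon at 0.818, 0.638 and 0.748 against 0.323, 0.338 and 0.402. The sets lay far apart. Puf60, a splicing factor that binds poly-U stretches, rose by 0.135 and Hnrnpa1, an RNA-binding splicing repressor, fell by 0.106 in the authors' deposited table. Among chromatin and transcription genes 6 of 38 exons (15.8%) changed, 3 higher and 3 lower, with a median of -0.026. Brd8, a bromodomain protein, rose by 0.244 in the authors' deposited table.

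Of 241 genes with more than 1 frame-keeping exon in the window, 20 had more than 1 that changed. In 6 of these (Abi1, Akap11, Cdk8, Erc1, Map4k4 and Phf20l1) changed exons overlap and are edge variants of the same exon. In 7 others, exons of 1 gene changed in opposite directions. App combined its falling 168 nt exon with a 54 nt exon at chr16:84971408-84971461 that was at 0.798, 0.839 and 0.901 in the first set and at 0.616, 0.629 and 0.636 in the second, a difference of 0.219 in the authors' deposited table. Tcf7l2, the transcription factor at the end of Wnt signalling, had a 51 nt exon at 0.252, 0.147 and 0.185 against 0.0213, 0.0441 and 0.0824 and a 75 nt exon at 0.737, 0.844 and 0.517 against 0.980, 0.902 and 0.873. The first of these rose and the second fell, and the sets did not overlap in either. In the 75 nt exon, at 55.7 reads per library, the gap from 0.844 to 0.873 was narrower than the first-set spread of 0.517 to 0.844. Osbpl9, a lipid transfer protein, had a 69 nt exon at 0.309, 0.319 and 0.0910 against 0.00893, 0 and 0, where the counts of 0 allow up to 0.0533 and 0.0244, and a 39 nt exon at 0.303, 0.311 and 0.185 against 0.494, 0.495 and 0.480. Library 3 of the first set was the lowest of its set in both. Epb41l3 (0.163 and -0.278), Ddhd1, a phospholipase (0.137 and -0.169), Lrrfip2 (0.165 and -0.135) and Plekha6 (0.574 and 0.148 against -0.113) made up the rest, by difference in the authors' deposited table. Several of these changes were small or shallow: the falling Epb41l3 exon had 40.0 reads per library.

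**Figure D5:**
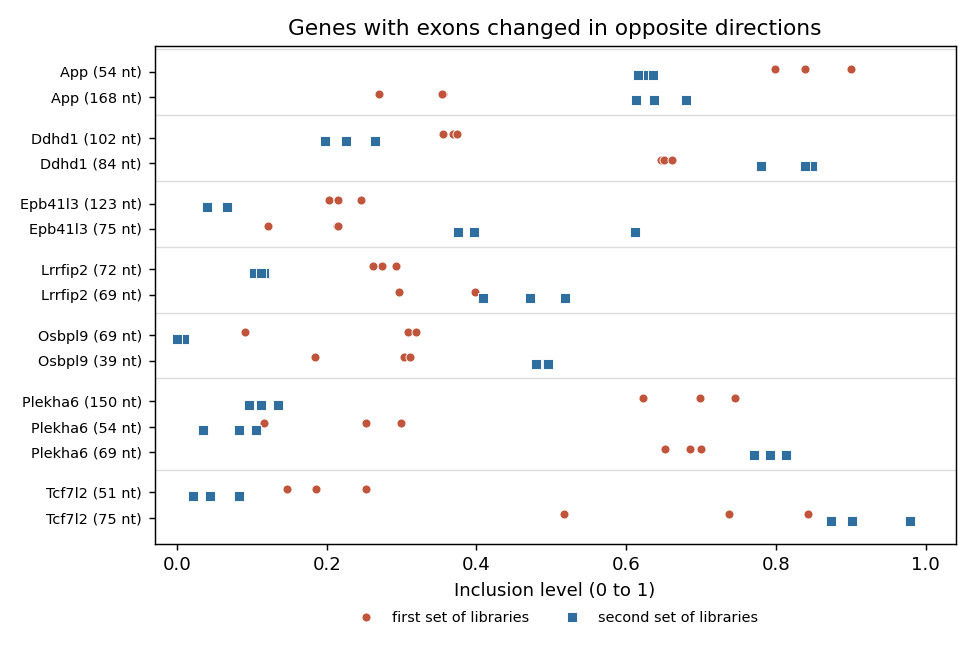
Inclusion level (0 to 1, horizontal axis) in each library for the changed frame-keeping exons of the 7 genes with changes in opposite directions. Circles are first-set libraries and squares second-set libraries; in App the 54 nt exon has its circles right of its squares and the 168 nt exon the reverse.

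In other genes more than 1 exon rose. Mff, a receptor for the mitochondrial fission machinery, had a 159 nt exon at 0.344, 0.324 and 0.349 against 0.147, 0.142 and 0.162. Its 60 nt exon was at 0.357, 0.391 and 0.352 against 0.204, 0.218 and 0.204. Libraries within a set differed by less than 0.05 in both. Wnk2 had 3 changed exons, of 45, 99 and 294 nt, that rose by 0.121, 0.137 and 0.413, and Sec31a, a COPII coat subunit, had exons of 39 and 78 nt that rose by 0.101 and 0.166, all by difference in the authors' deposited table. Whether exons of 1 gene are joined in the same transcript is not recorded in these tables.

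The same exon can stand in several rows with different flanking exons. This held for 171 frame-keeping exons, of which 49 had a changed row. In 35 of the 49 every row had the same sign, and 3 had changed rows of both signs. The mutually exclusive exon table lists 400 of the 1446 exons (27.7%), and 25 of these are in a changed pair. Of the 217 changed exons 54 (24.9%) are listed there and 12 (5.53%) are in a changed pair.

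In genes with a changed frame-keeping exon, alternative splice sites and retained introns changed in few genes, and mutually exclusive pairs in more. An alternative 5′ splice site changed in 0 of 46 such genes, beside 2.02% of all genes tested, and an alternative 3′ splice site in 2 of 83 (2.41%, beside 1.57%). A retained intron changed in 1 of 42 (2.38%, beside 3%). Mutually exclusive pairs changed in 17 of 111 (15.3%, beside 2.01%), and these pairs share exons and reads with the skipped-exon rows. Among all tested genes with a frame-keeping exon in the window, 5′ sites changed in 3.78% and 3′ sites in 1.69%. Retained introns changed in 3.77% of such genes and exclusive pairs in 5.99%.

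Few of these genes changed in level. In the authors' deposited gene table, 5 of 1134 genes with a frame-keeping exon in the window (0.441%) had a q-value below 0.05, beside 83 of 15460 tested genes (0.537%). These were Ptbp1, Tpm1, Frmd4a, H2-Bl and Tgfbr2. Among the 194 genes with a changed exon, 3 were called (1.55%), namely Frmd4a, H2-Bl and Tpm1. The median log2 ratio of PTBP1_KO to WT, on a log2(FPKM + 1) scale, was 0.04 for these 194 genes and 0.02 for all tested genes. In the authors' deposited gene table Tpm1 was at 192 FPKM in WT and 121 in PTBP1_KO, Frmd4a, a scaffold of epithelial polarity, at 1.68 and 2.86, and H2-Bl, an MHC class I gene, at 93.6 and 24.1. H2-Bl has near-identical relatives, so its reads are uncertain. The inclusion sets of its exon overlap, and the shallowest library held 290 reads against a mean of 1661. Genes with the greatest exon differences were at these levels: Sbf2 was at 11.8 and 13.5 FPKM, Plekha6 at 62.8 and 68.4, Kansl3 at 27.5 and 26.6, Atp8a1 at 7.08 and 7.02 and App at 92.0 and 114 in WT and PTBP1_KO in the authors' deposited gene table. Reep6 was at 128 and 168 FPKM, with a p-value of 0.0141 and a q-value of 0.625 there. FPKM is 1 value per group, so no spread between mice can be given for levels.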

How the data were processed

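RNA libraries of crypt cells from 3 WT and 3 PTBP1_KO mice were prepared and grouped by sample title. The submitters' processing notes name bcl2fastq 2.20, Trimmomatic 0.38, the aligner STAR 2.6.1d, the build mm10, Cuffdiff and Cufflinks; the splicing tool's version is not given in the sources used here. The authors deposited tables of splicing events with inclusion and skipping read counts per library, a p-value, an FDR, and an inclusion difference given as a score from -1 to 1 (per the file headers). The deposited gene table gives 1 FPKM per group, a log2 ratio, and p- and q-values.

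Inclusion per library was computed from the deposited reads divided by the deposited form lengths (numpy 2.4.6, pandas 2.3.3, Python 3.11.15); the difference of the sets' averages taken from it lay within 0.00109 of the authors' difference. Rows of 1 exon were represented by the row with most reads. Exons were matched to GENCODE M21 by coordinates (1443 of 1446, 99.8%). Because the sets carry no sample or replicate names, no test over libraries was run and no mean ± SD is given; FDR and q are the authors'. Their model treats the libraries as replicates. Its p-values are for a difference between the groups of these samples only and are not a measure of spread. The inclusion formula was tested on simulated reads, at greater depth than here, and the membership rule on made-up rows. The other counts were not tested in this way. Limits from a count of 0 cover counting error only, since reads carry no molecular identifiers.

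The exons named are the 12 greatest positive and 12 greatest negative changed exons with at least 20 reads in every library, each gene being represented by its exon of largest absolute difference, the deepest changed exon of each sign, 1 exon per gene of the PTBP1 target list, up to 4 per other list, and all in genes with several changed exons. The last group, and the exons of other genes called by level, were chosen after their values were seen. The exons studied and the gene lists were chosen with earlier results of these data known. A few exons that this rule names are not reported here.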

Additional observations from a re-analysis of the deposited data

How the results depend on the processing

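The count of 217 changed exons became 101 at a difference of at least 0.2, of which 74.3% were higher in the first set, and 135 with pooled inclusion limited to 0.2 to 0.8, which leaves fewer exons to test. It stayed within 1.5 times under the other settings. It was 169 at a mean of 50 reads and 189 at 20 reads in every library. It was 276 at a difference of at least 0.05 and 171 at FDR below 0.01. With 1 exon per gene it was 194, and over rows 254. Leaving each library in turn out of the reads and pooled inclusion gave 195 to 224. In those counts the FDR and difference were still those of all 6 libraries. Only membership could move there, and the calls themselves were not redone. The share higher was 61.2% to 74.3% over the settings that kept all libraries and 63.6% to 68.0% in the leave-out counts. Without 1 library, 178 of the 217 exons (82.0%) kept a difference of at least 0.1 whichever was left out, 39 fell under it at least once, and 0 changed sign. The 217 exons were called from these same libraries, so these counts are a description and no separate support. In the 196 exons whose sets did not overlap, leaving out 1 library cannot turn the sign. The CTCT share in comparison exons was 45.1% for unchanged exons and 42.2% for all that did not change. Of genes with a frame-keeping exon, 5 were called by level, of which 3 reach a minimum of 5 FPKM, and 33 had an unadjusted p below 0.05.

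No paired analysis was possible because the columns carry no replicate numbers of the groups. Words in flanking introns, in windows of either planned size, were not run, since no genome sequence was used here, and in-frame stop codons were not counted. Depth limits exons such as those of Tpm1, Cd44 and Cttn: 28 of the 217 changed exons (12.9%) had a library under 20 reads, beside 221 of all 1446 (15.3%).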
